A study of Mus musculus with 37 samples.

Results

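The comparison described here set the PolyA RNA of Arntl-/- bone marrow-derived macrophages (BMDMs) against that of wild-type (WT) BMDMs 24 h after the addition of Kdo2 lipid A (KLA), the TLR4 agonist of the study. Its members were the 2 libraries labelled KLA 24h, 1 of each genotype, of the 37 samples of the series, and every gene of the deposited table was considered. Of 24016 genes, 10758 had a mean of at least 50 scaled reads over the 2 libraries and were analyzed. The comparison asks how far the transcriptome of a macrophage without the clock protein Bmal1, the product of Arntl, differed late in the response to TLR4 activation. Both groups came from male mice of 6 to 9 weeks, both labelled C57BL/6J, the WT animals being given as littermates in one place and as purchased animals in another, and the marrow cells of both were cultured for 6 days with M-CSF before KLA was added. Arntl-/- animals lack the gene in all tissues and not in macrophages alone, and neither the number of mice behind a library nor any pooling is stated in the sources used here. The same genotypes were also sequenced at 0, 6 and 48 h, again with 1 library each, and those 6 libraries are used below only to place the 24 h values.

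In the circadian clock of mammals, Bmal1 and Clock bind E-boxes together and activate the genes of their own repressors, the Period (Per) and Cryptochrome (Cry) proteins and the nuclear receptors Rev-erbα (Nr1d1) and Rev-erbβ (Nr1d2). Rev-erb proteins in turn repress Arntl, Cry1, Nfil3 and other genes through AGGTCA half-sites, and proteins of the Dbp family act through D-boxes. In macrophages the clock and the Rev-erb proteins are known to act on inflammatory genes, whereas TLR4 acts through NF-κB and, by way of interferon-β, on interferon-stimulated genes that carry the interferon-stimulated response element.

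The promoters of 6 genes whose values are described below are shown because they carry these elements. Each stretch gives the 170 bases before the deposited transcript start in mm9, read 5′ to 3′ on the strand of the gene, and capitals mark a match on either strand to the E-box CACGTG in Ciart and Cry1, to the D-box TTATGTAA or TTACGTAA in Per2, to the half-site AGGTCA in Nr1d2 and to the response element core GAAANNGAA in Ifit3 and Ifit1.
Ciart, chr3:95686152-95686321, minus strand: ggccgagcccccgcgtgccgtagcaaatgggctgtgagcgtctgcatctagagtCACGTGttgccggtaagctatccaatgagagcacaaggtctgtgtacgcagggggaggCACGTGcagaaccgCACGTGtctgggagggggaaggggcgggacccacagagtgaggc
Cry1, chr10:84647800-84647969, minus strand: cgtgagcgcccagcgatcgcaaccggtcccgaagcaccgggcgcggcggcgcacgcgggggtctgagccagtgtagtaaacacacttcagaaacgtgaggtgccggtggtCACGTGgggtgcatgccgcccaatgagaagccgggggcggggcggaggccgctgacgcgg
Per2, chr1:93355906-93356075, minus strand: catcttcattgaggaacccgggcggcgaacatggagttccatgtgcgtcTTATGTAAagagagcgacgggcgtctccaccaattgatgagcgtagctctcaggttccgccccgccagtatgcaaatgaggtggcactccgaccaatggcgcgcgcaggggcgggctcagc
Nr1d2, chr14:19071621-19071790, minus strand: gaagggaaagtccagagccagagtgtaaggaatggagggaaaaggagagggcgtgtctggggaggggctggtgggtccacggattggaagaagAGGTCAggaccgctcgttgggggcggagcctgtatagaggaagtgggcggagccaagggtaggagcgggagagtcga
Ifit3, chr19:34657849-34658018, plus strand: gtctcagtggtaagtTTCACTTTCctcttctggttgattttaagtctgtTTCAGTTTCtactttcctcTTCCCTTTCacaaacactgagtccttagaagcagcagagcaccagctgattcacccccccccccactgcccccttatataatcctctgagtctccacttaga
Ifit1, chr19:34715209-34715378, plus strand: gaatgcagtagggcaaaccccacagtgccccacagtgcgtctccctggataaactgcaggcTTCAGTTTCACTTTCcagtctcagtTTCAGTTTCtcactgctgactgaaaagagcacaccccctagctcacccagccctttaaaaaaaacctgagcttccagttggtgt

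The deposited FPKM are scaled to 10000000 reads per library, and they were divided by size factors before use (scaled FPKM). The reads behind each value could be recovered, and the 2 libraries held 10685710 reads on genes in WT cells and 15350455 in Arntl-/- cells. With 1 library per genotype no difference has a replicate check and none was tested. Differences are therefore given as the log2 ratio of scaled FPKM in Arntl-/- over WT cells with a pseudocount of 0.1, with a 95% interval that covers the counting of reads only, and are read against lines at 1.5-fold. The 2 libraries had the markers of macrophages, with a summed scaled FPKM over 11 of them of 29901 in WT and 27840 in Arntl-/- cells, and none of these 11 lay past a 1.5-fold line.

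Arntl itself, the deleted gene, lies on chromosome 7 of mm9 from 120350979 to 120457640. It stood at a level of 35.6 scaled FPKM from 172 reads in WT cells and of 18.8 from 136 reads in Arntl-/- cells. Its log2 ratio was -0.92 (counting interval -1.25 to -0.59), or 1.89-fold lower. The value is a sum over all exons, so it does not tell which exons the reads of the Arntl-/- cells came from. At 0, 6 and 48 h the log2 ratio of Arntl was -1.30, -1.50 and -0.93, so that the Arntl-/- library was below the WT library at every time.

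Among the repressors of the clock, the Rev-erb genes were lower and the Cryptochrome and Period genes were mostly higher in Arntl-/- cells. Nr1d2 had the lowest ratio of all genes analyzed. Its scaled FPKM was 95.4 from 740 reads in WT cells and 2.76 from 32 reads in Arntl-/- cells, which is a log2 ratio of -5.06 (-5.67 to -4.60), or 33.4-fold lower. The WT level at 24 h was the highest of the 4 WT libraries, which had 70.6, 60.2, 95.4 and 90.2 at 0, 6, 24 and 48 h, whereas the Arntl-/- level at 24 h was the lowest of its 4, at 6.15, 3.23, 2.76 and 3.70. Nr1d1, which encodes the related receptor Rev-erbα, had 26.2 in WT and 10.0 in Arntl-/- cells, a log2 ratio of -1.38 (-1.84 to -0.95). Unlike Nr1d2, it was at its lowest WT level at 24 h (44.5, 33.9, 26.2 and 37.0 over the 4 times).

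Cry1 and Per2 were among the 15 genes with the highest ratios. Cry1 had a scaled FPKM of 53.5 from 269 reads in WT cells and of 208 from 1565 reads in Arntl-/- cells, a log2 ratio of 1.96 (1.77 to 2.15) or 3.89-fold higher. For Per2 the values were 10.4 and 33.7, a log2 ratio of 1.69 (1.39 to 2.02) or 3.22-fold. Cry2 had 38.5 and 95.04, a log2 ratio of 1.30 (1.104 to 1.51), which was above its ratios of 0.62, 1.07 and 0.36 at the other times. A transcript of the opposite strand, D930015M05Rik, overlaps Cry2 and was not separated from it, because reads were counted on both strands.

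The other repressors differed less or in the other direction. Ciart, whose protein interferes with Clock and Bmal1, had 15.5 from 36 reads and 25.6 from 89 reads, a log2 ratio of 0.72 (0.15 to 1.33). Its ratio was -1.41 at 48 h, so the order of the genotypes was opposite at the later time. C920021L13Rik overlaps Ciart on the opposite strand and was not separated from it. Per1 was at 61.6 and 80.5, a log2 ratio of 0.39 (0.23 to 0.55), which is inside the 1.5-fold lines. Per3 was the lone Period gene with a ratio below 0, at 18.9 and 12.7 with a log2 ratio of -0.57 (-0.87 to -0.27), also inside the lines. The casein kinases Csnk1d and Csnk1e, which act on the stability of the Period proteins, had log2 ratios of -0.01 and -0.23. Of the 11 repressors analyzed, 4 lay above the upper and 2 below the lower 1.5-fold line, whereas over all 10758 genes 4.13% lay above (444 genes) and 3.02% below (325 genes).

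**Figure D1:**
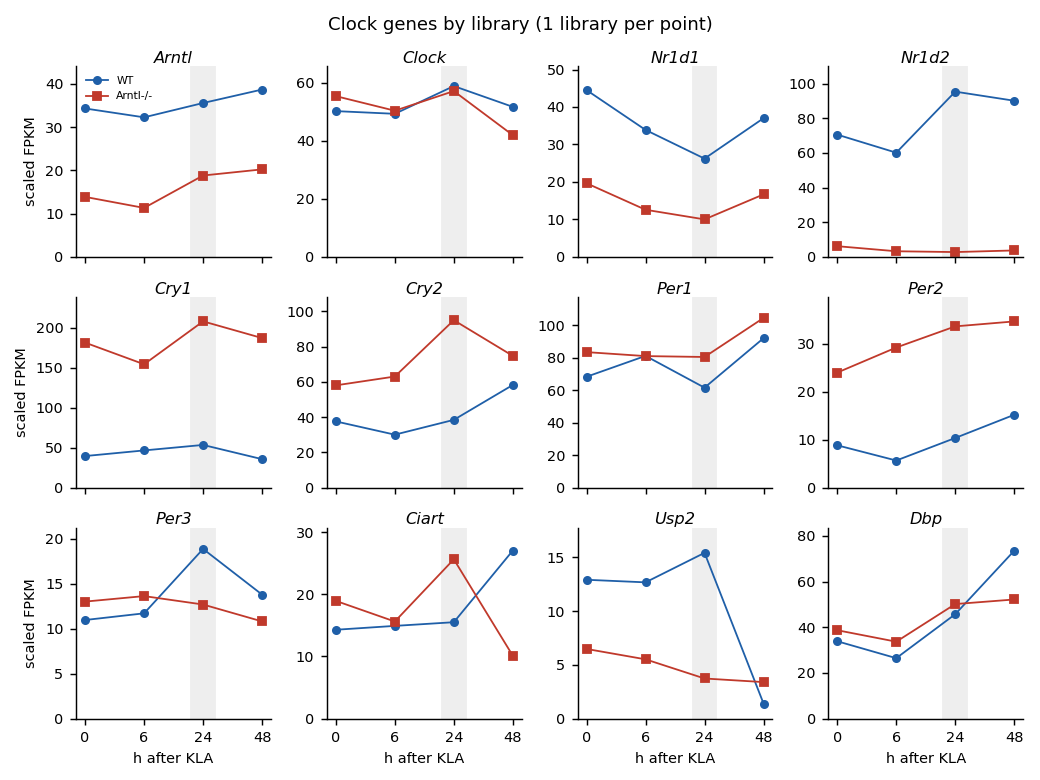
Scaled FPKM (vertical axes, each from 0) of 12 clock genes in WT (blue circles) and Arntl-/- (red squares) macrophages at 0, 6, 24 and 48 h after KLA (horizontal axis, evenly spaced), 1 library per point, with 24 h shaded. At 24 h Cry1 stood at 53.5 and 208, Per2 at 10.4 and 33.7 and Nr1d2 at 95.4 and 2.76 in WT and Arntl-/- cells, while Clock and Dbp lay close together.

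Among the activators, Clock was at 58.9 and 57.2 (log2 ratio -0.04, -0.16 to 0.08) and Rora, which competes with Rev-erb proteins for their sites, at 29.8 and 24.5 (-0.28, -0.45 to -0.11). The remaining 4 of 7 were under the minimum of reads. Npas2, the relative of Clock, was at 0 reads in WT cells and at 6 reads in Arntl-/- cells, too few to set a difference apart, and Arntl2, the relative of Arntl, was at 25 and 17 reads. Among the 8 output genes analyzed, the deubiquitinase gene Usp2 was the only member past a line, against 3.02% of all genes lower and 4.13% higher. Its scaled FPKM was 15.4 from 83 reads in WT and 3.73 from 30 reads in Arntl-/- cells, a log2 ratio of -2.02 (-2.70 to -1.43), whereas at 48 h, when the WT level was 1.40, the ratio was 1.22. The transcription factors Dbp and Tef, which bind D-boxes, had log2 ratios of 0.13 and 0.19, with scaled FPKM of 45.7 and 50.1 for Dbp and of 138.9 and 158.7 for Tef. Nfil3, which represses through D-boxes, was at 99.4 and 138.2 (0.47, 0.28 to 0.67), and Bhlhe40, which represses through E-boxes, at 81.1 and 118.3 (0.54, 0.38 to 0.71), both inside the 1.5-fold lines. Dbp overlaps Sphk2 and Bhlhe40 overlaps 0610040F04Rik, each on the opposite strand.

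Over all genes analyzed the log2 ratio was centered at 0 by the size factors, with -0.47 and 0.54 as its 5th and 95th percentiles. At 2-fold, 91 genes (0.846%) were higher and 70 (0.651%) lower in Arntl-/- cells. The genes past the lines were mostly genes of low read number. In the decile of genes with the fewest reads (50.1 to 111 mean scaled reads) 31.2% were past a 1.5-fold line and the SD of the log2 ratio was 0.63, and in the highest decile 0.465% were and the SD was 0.16. In the lowest decile the SD that counting alone would give was 0.24 for the median gene, so the observed spread was wider than the counting intervals given here allow. The median log2 ratio also drifted with level, from 0.08 in the lowest to -0.08 in the highest decile. After a correction for this drift 356 genes were higher and 409 lower, and with the values as deposited 549 and 276, so the balance of the directions rests on the scaling. The ratios nearest to the lines were 0.59 and -0.59 among genes past them and 0.58 and -0.58 among the rest.

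**Figure D2:**
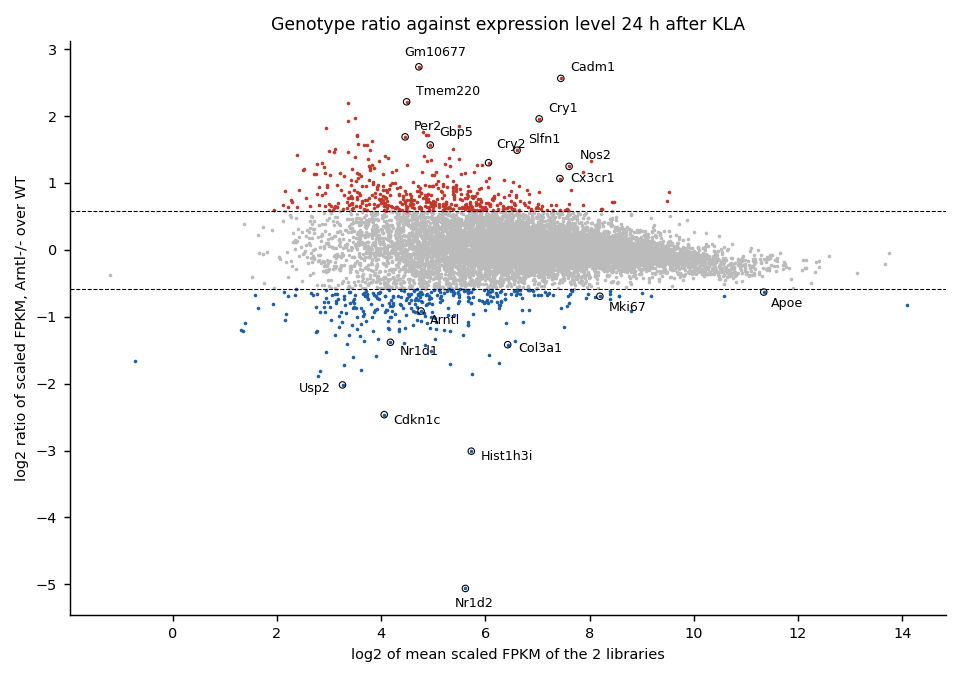
Log2 ratio of scaled FPKM in Arntl-/- over WT macrophages 24 h after KLA (vertical axis) against the log2 of the mean scaled FPKM of the 2 libraries (horizontal axis) for 10758 genes. Red points are the 444 genes above and blue points the 325 below the 1.5-fold lines (dashed), and labelled genes are named in the text.

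Outside the clock, the highest ratio of a protein-coding gene belonged to Cadm1, which encodes a cell adhesion molecule of the immunoglobulin superfamily. Its scaled FPKM was 50.5 from 367 reads in WT cells and 299 from 3248 reads in Arntl-/- cells, a log2 ratio of 2.56 (2.41 to 2.72) or 5.91-fold. The Arntl-/- library was above the WT library at every time, the WT libraries of the different times lying between 50.5 and 71.8 and the Arntl-/- libraries between 289 and 334. Gm10677 had a still higher ratio, 2.74 (2.15 to 3.42), but it lies within Cadm1 on the opposite strand, and without strand its 24 and 242 reads cannot be told apart from reads of Cadm1. Tmem220, which encodes a predicted membrane protein, was at 7.91 from 21 reads in WT and 37.0 from 147 reads in Arntl-/- cells (2.21, 1.56 to 2.96). This difference lay in the WT library, where 0, 6 and 48 h gave 22.02, 27.2 and 28.4, whereas the Arntl-/- libraries lay between 24.8 and 40.8. Polr1e, which encodes a subunit of RNA polymerase I and overlaps Fbxo10 on the opposite strand, showed the same form, with 4.56 in WT cells at 24 h against 14.4 to 17.7 at the other times and with 18.2 in Arntl-/- cells (1.97, 1.40 to 2.64).

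Of the other genes among the 15 highest ratios, Rab44, Kcnf1, Cst7, Rap1gap, Tmem263, Tmem40, Tsc22d1, Zfp772 and Ttc30a1 lay between 1.70 and 2.19. Cst7, which encodes cystatin F, an inhibitor of cathepsins, was at 19.5 and 70.9 and had ratios of 1.17, 0.87 and 0.11 at 0, 6 and 48 h. Rab44, a small GTPase gene of hematopoietic cells, was at 3.65 and 17.0 and had ratios of 2.04, -0.14 and 1.24 at those times. Several of these genes rested on few WT reads, from 18 in Rap1gap to 80 in Tmem263.

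Among the genes with the lowest ratios, 4 were histone genes of the Hist1 cluster. Hist1h3i had a scaled FPKM of 94.5 from 76 reads in WT cells and of 11.6 from 14 reads in Arntl-/- cells, a log2 ratio of -3.01 (-3.96 to -2.19). Hist1h3h, Hist1h2bn and Hist1h3d had ratios of -1.86, -1.68 and -1.58. Over the 28 histone genes of the Hist clusters that were analyzed, a group chosen after their values were seen, 10 were at least 1.5-fold lower and 0 higher, against 3.02% and 4.13% of all genes, with a median log2 ratio of -0.34 at 24 h and of 0.52 at 48 h. In the decile of genes with the fewest reads, which held most of the 10 lower histone genes, 140 of 1076 genes were lower and 196 higher. The histone genes are near-identical copies, so the reads of single members are uncertain. Hist2h3c1 overlaps Hist2h3c2 and Hist1h4m overlaps Hist1h4n, so the 10 count some reads more than once. Most histone mRNA carries no poly(A) tail, and Rn45s, the ribosomal RNA precursor, which has none either, was also lower in the Arntl-/- library, at 22139 and 12507 with a log2 ratio of -0.82. At 0, 6 and 48 h the ratio of Rn45s was -1.04, 0.69 and -0.12, and the histone medians at those times were -0.15, -0.24 and 0.52. The part that capture of RNA without a poly(A) tail has in the histone values was not tested.

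Cdkn1c, which encodes the cyclin-dependent kinase inhibitor p57, was at 28.3 from 90 reads in WT and 5.05 from 24 reads in Arntl-/- cells (-2.46, -3.20 to -1.82). Igfbp5, which encodes a secreted protein that binds insulin-like growth factors, was at 10.9 and 2.87 (-1.89, -2.48 to -1.40) and was lower in Arntl-/- cells at every time. Itga11, a collagen-binding integrin, was at 11.1 and 3.09 (-1.81). Sbsn, 2700081O15Rik, Olfml3, Ttn, 4931414P19Rik and 6430562O15Rik, the others among the 15 lowest, lay between -1.59 and -1.80. 2700081O15Rik overlaps Rtn3 and 6430562O15Rik overlaps Mrps27, each on the opposite strand.

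Interferon-stimulated genes were mostly higher in Arntl-/- cells at 24 h. Of 57 type I interferon-stimulated genes analyzed, 10 were at least 1.5-fold higher and 0 were lower, against 4.13% and 3.02% of all genes, and 50 of 57 had a ratio above 0. Their median log2 ratio was 0.41. Slfn1, a Schlafen gene of unsettled biochemical function that restrains T cell growth, was highest, with 51.2 from 159 reads in WT and 144 from 668 reads in Arntl-/- cells (1.49, 1.24 to 1.75). In WT cells Slfn1 went from 76.3 at 6 h to 51.2 at 24 h and 182 at 48 h, whereas in Arntl-/- cells it went from 93.2 to 144 and 185, so that at 48 h the libraries were alike, with a ratio of 0.03.

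The Ifit genes, whose proteins bind viral RNA lacking the host cap structure, had the same order. Ifit3 was at 140 from 467 reads and 259 from 1294 reads (0.89, 0.74 to 1.05), Ifit1 at 147 and 221 (0.59, 0.46 to 0.73) and Ifit2 at 153 and 231 (0.60, 0.49 to 0.70). Ifit1 and Ifit2 lay only just past the line. Between 6 and 24 h, Ifit3 went from 238 to 140 in WT cells and from 257 to 259 in Arntl-/- cells, and at 48 h the values were 508 and 563. The promoters of Ifit3 and Ifit1 shown above hold 3 response element cores each, which overlap in part in Ifit1. The antiviral dynamin-like GTPases Mx1 and Mx2 were at 76.8 and 127 (0.73, 0.55 to 0.91) and at 29.3 and 54.2 (0.88, 0.58 to 1.20).

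The other members past the line were Slfn4, Ms4a4c, Phf11a and Phf11b, with log2 ratios of 0.59, 0.76, 0.83 and 0.74. After correction for expression level Slfn4, Ifit1 and Ifit2 were inside the line. The Phf11 and Slfn genes stand in families of close copies, so the split of reads within a family is uncertain. The members with the highest levels differed little, Bst2, which tethers budding viruses, being at 1956 and 1758 (-0.15) and Irf7, the transcription factor of the interferon response, at 735 and 790 (0.10). Rsad2 and Isg15 had ratios of 0.36 and 0.48. Ifnb1, the gene of interferon-β and the lone listed gene not analyzed, had 0 reads in both libraries.

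The interferon-inducible GTPases that guard against intracellular microbes were in the same order. Of 17 GBP and IRG genes analyzed, 5 were at least 1.5-fold higher and 0 were lower, against 4.13% and 3.02% of all genes, and 16 had a ratio above 0, with a median log2 ratio of 0.36. Gbp5, which takes part in inflammasome activation, was at 15.5 from 78 reads in WT and 46.1 from 347 reads in Arntl-/- cells (1.57, 1.21 to 1.95), after 52.6 and 58.7 at 6 h. Tgtp1 was at 21.9 and 56.9 (1.37, 1.06 to 1.70) and Tgtp2, its close copy, which overlaps Olfr56 on the opposite strand, at 63.7 and 117 (0.88, 0.69 to 1.08). Iigp1 had a ratio of 0.79 and Gbp4 of 0.64, the latter inside the line after correction for expression level, whereas Gbp2 was at 0.02. For both interferon lists the genotype ratio was larger at 24 h than at 6 h (medians of 0.16 and 0.14) and at 48 h (0.03 and 0.03), and at 0 h the medians were 0.25 and 0.42. At 0 h, before KLA, 11 of 57 and 4 of 17 were at least 1.5-fold higher, close to the 10 and 5 at 24 h.

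**Figure D3:**
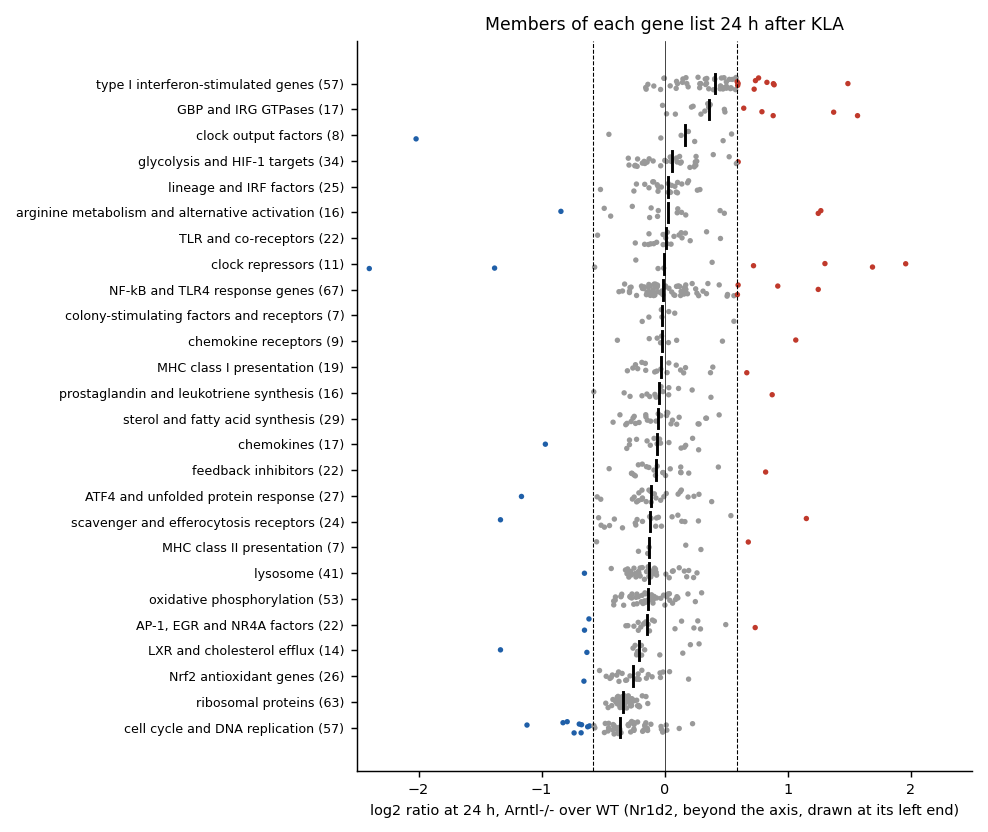
Log2 ratio at 24 h of Arntl-/- over WT cells (horizontal axis) for the members of 26 gene lists (rows, with the number of members analyzed), red for at least 1.5-fold higher, blue for at least 1.5-fold lower, gray for the rest, with the median as a black bar and the 1.5-fold lines dashed. The type I interferon list lies at the top with a median of 0.41 and the cell cycle list at the bottom with -0.37, and Nr1d2 (-5.06) is drawn at the left end.

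The genes of the NF-κB and TLR4 response lay on both sides of equal levels. Of 67 analyzed, 4 were at least 1.5-fold higher (5.97%, close to the 4.13% of all genes) and 0 lower, and the median log2 ratio was -0.02, with 33 of 67 above 0. Nos2, which encodes inducible nitric oxide synthase, was highest, at 115 from 766 reads in WT and 274 from 2721 reads in Arntl-/- cells (1.25, 1.13 to 1.37), or 2.37-fold. It was higher in Arntl-/- cells at every time, with ratios of 1.40, 0.37 and 0.94 at 0, 6 and 48 h. The others past the line were Il1a (28.9 and 54.7, 0.92), the coagulation factor gene F10 (116 and 176, 0.60) and Il18 (41.1 and 61.9, 0.59), the latter pair only just past it and inside it after correction for expression level. Il1a overlaps Gm14023 on the opposite strand.

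The cytokines with the most reads differed little, and some with fewer reads were higher inside the line, such as Csf3 (0.56) and Il12a (0.51), while others were under the minimum of reads, such as Il10 (24 and 60 reads) and Il12b (0 and 25). Il1b was at 594 from 1311 reads and 707 from 2334 reads (0.25, 0.15 to 0.35), Tnf at 468 and 522 (0.16, 0.06 to 0.26) and Il6 at 17.7 and 23.3 from 32 and 63 reads, which is under the minimum. Il1b overlaps Il1bos on the opposite strand. Irg1, which makes itaconate, was at 2173 and 2137 (-0.02), the inhibitor Nfkbia at 974 and 891 (-0.13) and Ptges, the inducible prostaglandin E synthase, at 747 and 872 (0.22). Rela, the p65 subunit of NF-κB, had a ratio of 0.07, Hif1a of 0.10, Irf1 of 0.19 and Spi1, which encodes the macrophage lineage factor PU.1, of -0.16.

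Chemokines were mostly close to equal, and the single genes past a line stand beside 4.13% higher and 3.02% lower of all genes. Of 17 analyzed, Ppbp, whose product is best known from platelets, was past a line, at 56.1 and 28.6 (-0.97, -1.42 to -0.53). Ccl2 was at 1214 and 996 (-0.29, -0.38 to -0.19), with a ratio of -0.71 at 48 h, and Cxcl2 at 1209 and 1114 (-0.12). Ccl8, with 19 and 13 reads, was under the minimum. Among 9 chemokine receptors Cx3cr1, the fractalkine receptor, was past a line, at 111 from 700 reads in WT and 233 from 2191 reads in Arntl-/- cells (1.06, 0.94 to 1.19). It was higher at every time, the 4 WT libraries lying between 51.5 and 111 and the Arntl-/- libraries between 102 and 266, and the ratio at 24 h was below those at 6 h (1.496) and 48 h (2.02). C5ar1 and Fpr1 had ratios of -0.06 and -0.03.

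Genes of the cell cycle and of DNA replication were mostly lower in Arntl-/- cells. Of 57 analyzed, 9 were at least 1.5-fold lower and 0 higher, against 3.02% and 4.13% of all genes, and 53 had a ratio below 0, with a median of -0.37. Cenpf, a kinetochore protein gene, was at 69.9 from 1299 reads in WT and 32.1 from 893 reads in Arntl-/- cells (-1.12, -1.25 to -0.997). Mki67, which encodes the proliferation marker Ki-67, was at 363 from 6112 reads and 224 from 5648 reads (-0.69, -0.75 to -0.64).

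The mitotic genes Aurka, Ube2c, Cenpe and Cdc25c had ratios of -0.79, -0.74, -0.68 and -0.83, and the replication genes Prim1, Rfc4 and Cdc6 of -0.68, -0.63 and -0.61. Rfc4 overlaps Eif4a2 on the opposite strand, and Rfc4 and Cdc6 were inside the line without size factors. The members with the highest levels were inside the line, Pcna, the sliding clamp of replication, being at 1373 and 1065 (-0.37) and Top2a at 544 and 406 (-0.42). Over the 4 times Mki67 stood at 318, 242, 363 and 175 in WT cells, against 271, 319, 224 and 132 in Arntl-/- cells, so the genotypes were in the opposite order at 6 h. Over the list the medians at 0, 6 and 48 h were -0.07, -0.11 and -0.25. Myc, which drives growth, was at 50.2 and 32.7 (-0.62), inside the line without size factors. In bulk RNA, fewer dividing cells and less of these mRNAs per dividing cell cannot be told apart.

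**Figure D4:**
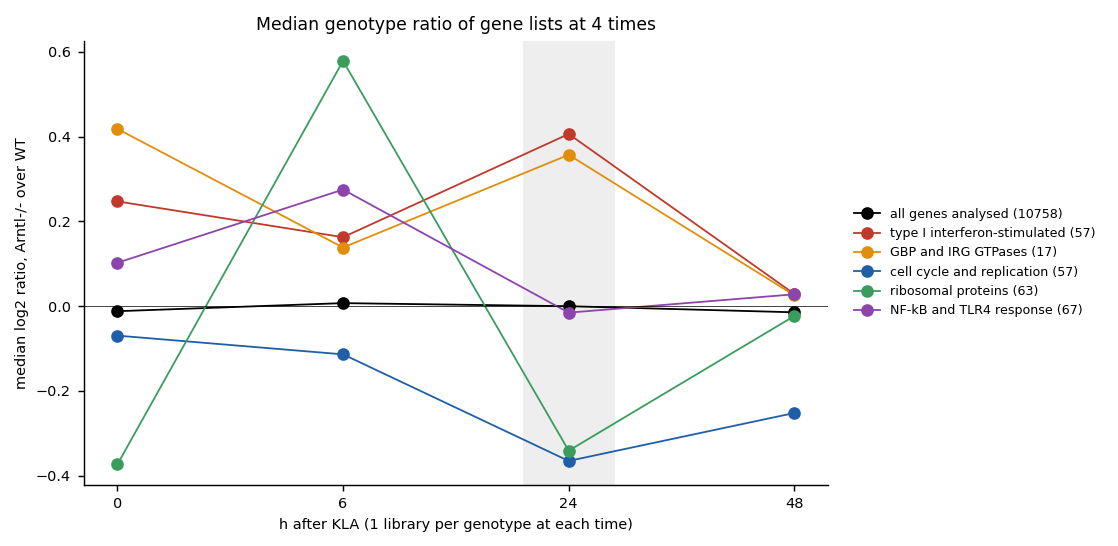
Median log2 ratio of Arntl-/- over WT cells (vertical axis) of 5 gene lists and of all genes analyzed at 0, 6, 24 and 48 h after KLA (horizontal axis, evenly spaced), with the number of genes in brackets and 24 h shaded. The type I interferon list goes from 0.25 before KLA to 0.41 at 24 h and 0.03 at 48 h, the GBP and IRG list from 0.42 to 0.36 and 0.03, the cell cycle list is lowest at 24 h (-0.37), and the ribosomal proteins alternate.

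The 63 ribosomal protein genes all had a ratio below 0 and none was past a line, with a range from -0.48 to -0.14 and a median of -0.34. The ratio was -0.37 at 0 h, 0.58 at 6 h and -0.02 at 48 h. At 0, 6 and 24 h the library with more reads was the one with the lower ribosomal protein level, and the highest decile of genes by reads had median ratios of -0.12, 0.23 and -0.08 at those times. At 48 h it was not so, the WT library having more reads (9191164 and 8587560), and the highest decile had a median ratio of -0.06. With ratios corrected for expression level the 24 h median was -0.15. The part of depth in this difference was not tested further. The respiratory chain had 0 of 53 genes past a line and medians of -0.17, 0.37, -0.13 and 0.05 at 0, 6, 24 and 48 h.

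In metabolism and stress, single genes were past a line, which is 2.94% to 3.85% of their lists and close to the 4.13% and 3.02% of all genes. Of 26 Nrf2 antioxidant genes the glutathione transferase gene Gsta3 was lower (110 and 69.9, -0.66), and Hmox1, heme oxygenase, was at 2427 and 1949 (-0.32). The list median was -0.25, or -0.09 after correction for expression level. Of 27 genes of ATF4 and the unfolded protein response, the amino acid transporter gene Slc7a5 was lower, at 30.5 from 179 reads and 13.6 from 119 reads (-1.16, -1.52 to -0.83). Of 34 glycolysis and HIF-1 genes Car9, a carbonic anhydrase induced by hypoxia, was higher (25.5 and 38.6, 0.60), but not after correction for expression level or with a pseudocount of 1, and the list median was 0.06. Of 29 sterol and fatty acid genes, 22 TLR genes, 25 lineage and IRF genes and 7 colony-stimulating factor and receptor genes, 0 were past a line, Csf1r, the receptor of M-CSF, being at 2443 and 2152 (-0.18).

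Among genes of clearance and lipid handling few lay past a line, and for the scavenger and lysosome lists the shares were near the 4.13% higher and 3.02% lower of all genes. Apoe, which encodes apolipoprotein E and is a target of LXR, was at 3152 from 6573 reads in WT and 2034 from 6342 reads in Arntl-/- cells (-0.63, -0.68 to -0.58), which is inside the line after correction for expression level or without size factors. Cd5l, a secreted scavenger receptor protein that is also an LXR target, was at 46.8 and 18.5 (-1.33, -1.72 to -0.96) and was lower at every time. These were 2 of 14 LXR genes, whose median was -0.20, and Abca1, the cholesterol exporter, was at 422 and 360 (-0.23). Among 24 scavenger and efferocytosis receptors Cd5l was lower and Olr1, which takes up oxidized LDL, was higher, at 5.71 and 12.8 (1.15). The complement gene C1qc had a ratio of -0.52 and Mrc1, the mannose receptor, of -0.44. Of 41 lysosome genes Atp6v0d2, a subunit of the proton pump, was lower (18.7 and 11.9, -0.65).

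The next lists each held 1 to 3 genes past a line, several of them at shares near the 4.13% higher and 3.02% lower of all genes. Of 16 genes of arginine metabolism and alternative activation, Nos2 and Chil3 were higher and Folr2, a folate receptor gene of resident macrophages, was lower (243 and 136, -0.84). Chil3, a chitinase-like protein also made by neutrophils and their precursors, was at 36.0 from 92 reads and 86.9 from 332 reads (1.27, 0.93 to 1.62) and was higher at every time. For antigen presentation, H2-Eb1, a class II chain gene, was at 16.2 and 26.0 (0.68) and H2-T24, a class Ib gene that overlaps A930015D03Rik on the opposite strand, at 181 and 287 (0.67), 1 of 7 class II and 1 of 19 class I genes. The immediate early genes Egr2 (0.74), Maff (-0.65) and Myc were 3 of 22 past a line, Dusp10, a MAP kinase phosphatase, was 1 of 22 feedback inhibitors (0.82), and Ltc4s, leukotriene C4 synthase, 1 of 16 genes of prostaglandin and leukotriene synthesis (0.87).

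**Figure D5:**
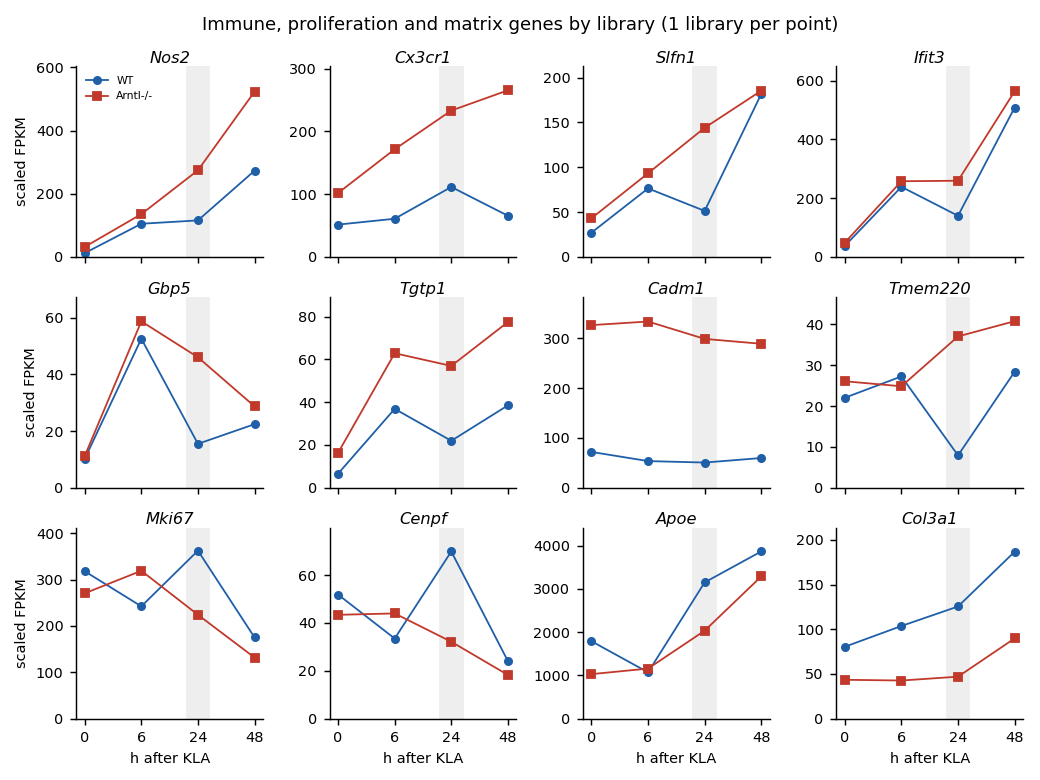
Scaled FPKM (vertical axes, each from 0) of 12 genes of the immune response, adhesion, proliferation, lipid handling and matrix in WT (blue circles) and Arntl-/- (red squares) macrophages at 0, 6, 24 and 48 h after KLA (horizontal axis, evenly spaced), 1 library per point, with 24 h shaded. Slfn1, Ifit3 and Gbp5 dip at 24 h in WT cells and lie close together between the genotypes at 48 h or 6 h. They were higher in Arntl-/- cells at all 4 times, as were Cadm1 and Cx3cr1, and Col3a1 was lower at all 4 times.

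Several markers of stromal cells, which make extracellular matrix, were lower in Arntl-/- cells. Col3a1 was at 125 from 1158 reads in WT and 46.9 from 647 reads in Arntl-/- cells (-1.42, -1.56 to -1.28), Sparc at 143 and 67.6 (-1.08) and Postn at 68.8 and 32.6 (-1.07). Over 14 markers of fibroblasts and stromal cells the summed scaled FPKM was 999 in WT and 633 in Arntl-/- cells, 6 of the 11 analyzed were at least 1.5-fold lower, against 3.02% of all genes, and 10 had a ratio below 0, with a median of -0.63. Col6a1, Col1a2 and Acta2 were inside the line, at -0.19, -0.22 and -0.26. Dcn, which marks the same cells, was at 29.3 and 37.0 (0.34). The WT sum was also above that of Arntl-/- cells at 0 h (768 and 558), 6 h (893 and 605) and 48 h (1862 and 1113). Igfbp5, Aebp1 and Nid2, which are known from connective tissue, were also lower at all 4 times, and the part of stromal cells in their values was not tested.

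Of the neutrophil list, 6 of 12 were analyzed and 2 were higher, against 4.13% of all genes. S100a9 was at 148 and 371 (1.32) and Ngp, a granule protein gene, at 17.1 and 38.4 (1.16), whereas S100a8 was at 429 and 411 (-0.06), and Mpo was at 0 reads in both libraries. Ltf had a ratio of 0.53, and Cxcr2 and Prtn3, under the minimum, had 8 and 40 reads and 0 and 24 reads. The summed level of the list was 2310 and 2494, mostly from Mmp8 (1272 and 1195). Chil3 and Ngp were higher in Arntl-/- cells at all 4 times, though at few reads in WT cells at 48 h, and S100a9 at all but 48 h, where its ratio was -0.17, and the part of neutrophils in the value of Chil3 was not tested. The summed levels of the T and NK cell list were 270 and 309, mostly from Il7r (257 and 304), of the B cell list 128 and 131, mostly from Blnk (105 and 89.3), of the dendritic cell list 96.9 and 81.1, of the osteoclast list 2588 and 2326, mostly from Mmp9 (2047 and 1824), and of the erythroid and megakaryocyte list 2118 and 1718, the last almost wholly from Pf4. The mast cell and eosinophil lists were at 3.61 and 7.62 and at 6.43 and 9.76, and the endothelial list at 43.4 and 63.7. Past the line were Pecam1 of the endothelial list (152 and 365 reads, 0.68), 1 of 2 analyzed, and Cd79b of the B cell list (36 and 81 reads, 0.59), 1 of 2 analyzed, against 4.13% of all genes. Under the minimum, Tie1 had 4 and 32 reads, Cdh5 0 and 16 and Tek 0 and 9.

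Most genes past a line at 24 h were not past it at the other times, at which no minimum of reads was set (349 of the 444 higher and 250 of the 325 lower genes had 50 mean scaled reads at 48 h). Of the 444 genes higher at 24 h, 87 were also at least 1.5-fold higher at 0 h, 36 at 6 h and 114 at 48 h, which is 19.6%, 8.11% and 25.7% of them and 21.8%, 15.0% and 15.4% of the genes higher at those times. The background was 3.72%, 2.23% and 6.86% of all genes. In the opposite direction, 16, 33 and 54 of the 444 were past the lower line. Of the 325 genes lower at 24 h, 56, 62 and 74 were also lower at 0, 6 and 48 h, against 2.13%, 2.83% and 5.69% of all genes, and 12, 10 and 54 were past the higher line. These shares are 17.2%, 19.1% and 22.8% of the 325 and 24.5%, 20.4% and 12.1% of the genes lower at those times. At none of the other 3 times past the line were 270 of the higher and 194 of the lower genes.

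Past the same line at all 4 times were 13 genes higher and 11 genes lower in Arntl-/- cells. The higher genes were Cadm1 with Gm10677, the clock genes Cry1 and Per2, the immune genes Cx3cr1, Il23r, Tgtp1, Chil3, Ngp and Clec2i, and Phf11c, Oaf and Itga1. The lower genes were the clock genes Nr1d2, Nr1d1 and Arntl, the matrix and stromal genes Col3a1, Sparc, Postn, Nid2, Aebp1 and Igfbp5, and Cd5l and Etl4. The 48 h ratios of Ngp, Chil3 and Phf11c rested on few reads, with scaled FPKM of 0, 2.95 and 6.65 in WT cells. Among the genes of both directions, Aebp1, Nid2, Clec2i and Cadm1 overlap a gene of the opposite strand. Il23r, a subunit of the receptor of interleukin-23, was at 53.6 from 222 reads and 110 from 683 reads at 24 h (1.04, 0.82 to 1.27), with ratios of 0.62, 0.70 and 0.61 at the other times.

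The genes whose 24 h ratio lay farthest from those of the other times were found as the 24 h ratio less the median of the other 3, so that a gene could still have a like ratio at 1 other time, as Gm16062 did at 0 h (1.36 and 1.41) and Pou4f1 at 0 h (-0.86 and -1.64). The 10 highest were Cd320, Tmem40, Susd2, Ttc30a1, Tmem220, Polr1e, Rgl3, Gm16062, Plekhf1 and BC022687. Gm16062 overlaps Cops3 on the opposite strand. Cd320, the receptor for vitamin B12 bound to transcobalamin, was at 9.22 from 34 reads and 24.5 from 135 reads at 24 h (1.40, 0.857 to 1.997), with ratios of -1.12, -1.15 and -0.92 at 0, 6 and 48 h. The 10 lowest were Hist1h3i, Hist1h3h, Sbsn, Olfml3, Ttn, Gm10509, Pou4f1, Plag1, Kcnj10 and 4931414P19Rik. Olfml3, a secreted protein gene, was at 61.05 from 177 reads and 18.7 from 81 reads (-1.70), and its WT level went from 18.4 at 6 h to 61.05 at 24 h and 10.8 at 48 h, while its Arntl-/- level went from 14.6 to 18.7 and 47.2.

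Leaving out Y, where 4 genes were analyzed and 0 were past a line, the share higher ran from 2.78% on chromosome 5 to 6.02% on chromosome 16, and the share lower from 1.023% on chromosome 5 to 5.09% on chromosome 14. Within 10 Mb of Arntl 91 genes were analyzed, of which Eef2k and Rassf10 were at least 1.5-fold higher (1.41 and 1.11) and Gprc5b and Arntl lower (-1.19 and -0.92), or 2.20% in each direction, below the 4.13% and 3.02% of all genes. Gprc5b overlaps Iqck on the opposite strand.

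The promoter windows, from 250 bases before to 50 after each deposited start, were searched on both strands, and a match is a description of letters and not of binding. CACGTG was found in 9.01% of the higher and 7.38% of the lower genes, against 10.3% of genes analyzed and 7.75% of all 23954 windows. It lay 60 bases before the start in Cry1 and 116, 58 and 44 before it in Ciart. It was found in 3 of 11 clock repressors and 3 of 8 clock output genes. AGGTCA was found in 14.6% of the higher and 8.92% of the lower genes (11.7% of genes analyzed, 14.2% of all windows), and in Nr1d2 it lay 77 bases before the start. By list, AGGTCA was found in 9 of 17 GBP and IRG genes, 7 of 57 type I interferon-stimulated genes and 2 of 11 clock repressors. TTATGTAA or TTACGTAA was found in 0.225% and 0.615% (0.623% and 0.923%) and in 2 of 11 clock repressors, and in Per2 it lay 121 bases before the start.

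GAAANNGAA was found in 29 of 57 type I interferon-stimulated genes (50.9%) and in 13 of 17 GBP and IRG genes (76.5%), but in 8.11% of all higher and 7.38% of all lower genes, close to the 7.59% of genes analyzed and the 8.14% of all windows. It lay 155, 121 and 102 bases before the start in Ifit3 and 109, 103 and 84 before it in Ifit1. GGGNNTTTC, a form of the NF-κB site, was found in 5.63% of the higher and 4.62% of the lower genes, against 4.27% of genes analyzed and 4.18% of all windows, and in 18 of the 67 genes of the NF-κB and TLR4 response.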

How the data were processed

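PolyA RNA of WT and Arntl-/- BMDMs was sequenced as paired ends. The authors used STAR for alignment to mm9 (versions are not given in the sources used here). With HOMER they took tags of both strands over RefSeq exons, with at most 3 per position, scaled each library to 10000000 and divided by length, and deposited FPKM of 24016 genes (1 fragment of a line was left out). The cap on tags per position can compress high levels more in deeper libraries. Another 4 value columns belong to no labelled sample and were not used.

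Size factors were the median of ratios to the geometric mean of the 8 RNA libraries (0.918 to 1.13). Low values came to whole reads within 0.1 in 100% of cases, which gave depths of 8587560 to 27036783 reads on genes. Log2 ratios used a pseudocount of 0.1. A mean of at least 50 scaled reads was required, with scaled FPKM times length put on the mean depth of the libraries compared. Counting intervals are exact binomial (Clopper-Pearson) at the 95% level on the reads of the 2 libraries, and cover counting error only. Groups came from the sample titles. No test was made, because each group is 1 library.

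Named were the genes the study names, the 15 highest and 15 lowest ratios, the clock genes, list members past 1.5-fold and up to 4 with the highest level per list, the 10 genes each way that stood apart at 24 h or were past the line at all 4 times, cell type markers and genes within 10 Mb of Arntl; some of these are not reported here. Rn45s, the histone group and Rsad2, Isg15, Gbp2, Csf3, Il10, Il12a, Il12b, Nid2, Clec2i, Oaf and Itga1 were chosen after their values were seen. The comparison, the gene lists (28, written from general knowledge) and this rule were chosen with earlier results of these data known. Alternatives were other scalings, pseudocounts of 1 and 0.01, lowess corrections (fraction 0.3) for level and length, other filters and 2-fold.

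The steps were tested on simulated reads. Tables were computed with pandas 2.3.3, intervals with scipy 1.17.1, lowess with statsmodels 0.14.6 and figures with matplotlib 3.10.9, on numpy 2.4.6 and Python 3.11.15.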

Additional observations from a re-analysis of the deposited data

Results flagged for a closer look

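Of the 101 named genes past a 1.5-fold line at 24 h, 13 were past the line of the opposite direction at another time. All 13 had at least 50 mean scaled reads there too. Several were named because their 24 h ratio lay farthest from those of the other times, so a reversal is partly built into the choice. Without that minimum, 3.60%, 7.43% and 12.2% of all 444 higher genes were past the lower line at 0, 6 and 48 h. Of the 325 lower genes, 3.69%, 3.08% and 16.6% were past the higher line. Each value is 1 library against 1, and the difference between the times was not tested. Cd320 had a log2 ratio of 1.40 at 24 h and of -1.12, -1.15 and -0.92 at 0, 6 and 48 h, and Susd2, a membrane protein gene, of 0.81 and of -1.75, -1.22 and -0.64. Egr2 was at 0.74, with -0.71 at 6 h and -0.71 at 48 h. Against 48 h, Ltc4s was at 0.87 and -0.64, Ms4a4c at 0.76 and -0.83, Phf11a at 0.83 and -0.60 and Tmem40 at 1.72 and -0.72. In the reverse order, Olfml3 was at -1.70 at 24 h and 2.11 at 48 h, and Sbsn at -1.80 and 2.71. Against 6 h, Ttn was at -1.66 and 1.83 and Plag1 at -0.66 and 1.11. Against 0 h, 4931414P19Rik was at -1.60 and 1.01 and Plekhf1 at 0.72 and -1.02.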

How the results depend on the processing

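No paired analysis was made, and at 24 h none was possible because each genotype has 1 library. The ratio of Arntl stayed within its counting interval under all 7 scalings, pseudocounts and corrections tried, and the counts past 1.5-fold stayed within 1.5 times of 444 and 325 under them (356 to 549 higher, 276 to 409 lower). Values as deposited, without size factors, gave 549 and 276, and correction for expression level 356 and 409, so the split between the directions depends on scaling. The filter moved the counts, since it changes the genes counted: 978 and 775 at a mean of 10 reads, 141 and 98 at 200, 2404 and 1716 with any read, 1699 and 1384 at an FPKM of 1, and 254 and 214 among the genes with the most reads in any WT library, taken by rank in the number the study kept and not by its threshold. At 2-fold they were 91 and 70. Of 101 named genes past a line, 93 to 101 stayed past it; correction for level lost 8 (Apoe, Car9, F10, Gbp4, Ifit1, Ifit2, Il18 and Slfn4), values as deposited lost Apoe, Cdc6, Myc and Rfc4, upper-quartile scaling lost F10, Ifit1, Ifit2, Il18 and Slfn4, correction for length lost F10, Ifit1, Ifit2 and Slfn4, and a pseudocount of 1 lost Car9, Il18 and Plag1. List medians ran from 0.39 to 0.45 for type I interferon-stimulated genes, from 0.32 to 0.40 for GBP and IRG genes and from -0.38 to -0.32 for the cell cycle. Correction for level turned the medians of the MHC class II list (0.081) and the lysosome list (0.027) positive, and 3 wider filters gave 0.17 for class II, since they add 4 genes of few reads. Depth limits genes near 50 reads most, and 1 library per genotype leaves culture, animal and library unseparated from genotype.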

Other observations

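Another group, chosen after the data were seen, was the 50 genes that were at least 2-fold higher at 6 h than at 0 h in both genotypes. Of these, 17 were at least 1.5-fold higher in Arntl-/- cells at 24 h, 1 was lower and 44 had a ratio above 0, against 4.13% higher and 3.02% lower over all genes. At 0 h, before KLA, 19 of the 50 were already at least 1.5-fold higher. The median log2 ratio of the 50 was 0.40, 0.16, 0.49 and 0.03 at 0, 6, 24 and 48 h. The lone lower gene was Ch25h, which encodes the enzyme that makes 25-hydroxycholesterol. Its scaled FPKM was 55.8 from 126 reads in WT cells and 24.0 from 81 reads in Arntl-/- cells, a log2 ratio of -1.21 (-1.64 to -0.80), and its ratios at 0, 6 and 48 h were -0.22, -0.71 and -0.73. The group shares members with the interferon lists of the report, and the 0 and 6 h values were used to choose it. Gm18853 and Gm17757 overlap on the same strand and had the same 102 and 216 reads, so these entries are not separate genes by their reads.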
